A study of Mus musculus with 8 samples.

Results

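The genes described here encode the proteins of the cytosolic ribosome. They were all symbols in the deposited expression tables that begin with Rpl, Rps or Rplp followed by a number and at most a short suffix (a, x, l, al or l1), together with Rpsa. This gave 87 of 55276 symbols. Of these, 76 were core members, with 43 of the large subunit, 3 of the stalk (Rplp0, Rplp1 and Rplp2) and 30 of the small subunit. The other 11 carry the name of another member with an added letter (Rpl3l, Rpl6l, Rpl7l1, Rpl10l, Rpl22l1, Rpl32l, Rpl36al, Rpl39l, Rps4l, Rps12l1 and Rps27l), and are called paralog-named members below. GENCODE annotates Rps4l as a transcribed processed pseudogene and Rpl6l, Rpl32l and Rps12l1 as processed pseudogenes, so those 4 names are not annotated as protein-coding there. The name rule leaves out other genes that also belong to the ribosome, of which Rps3a1, Fau and Rack1 are given separately.

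The ribosome reads messenger RNA in its small subunit and joins amino acids in its large subunit, and each particle holds 1 copy of nearly every protein. The acidic stalk proteins Rplp1 and Rplp2 sit on Rplp0 and recruit the elongation factors. Messenger RNAs of ribosomal proteins start with a C in a run of C and T bases, the terminal oligopyrimidine (TOP) motif, through which nutrient signalling by mTORC1 and the RNA-binding protein Larp1 sets their translation. Cells that grow and divide make more ribosomes. Proteins such as Rpl5 and Rpl11 bind Mdm2 when ribosome assembly fails, which links the family to p53.

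RNA was sequenced from fibro-adipogenic progenitors (FAPs), the connective tissue progenitors of skeletal muscle, sorted as GFP+ cells from the freeze-pierce injured tibialis anterior of mice aged 4 to 6 months on a C57Bl6 background. All mice carried the CAGG-Cre transgene, a tamoxifen-inducible Cre active in all tissues, and received tamoxifen at injury and on the following days. Recombination replaces Osr1 with eGFP. Controls (Ctrl) were Osr1 flox/+ and therefore had also lost 1 copy of Osr1, and Osr1cKO mice were Osr1 flox/flox. Each genotype had 2 libraries at 3 days post injury (3 dpi) and 2 at 7 dpi. Single mice (1 per library) were used at the earlier day and pools of 4 mice at the later one, so that the day of sampling and the pooling cannot be told apart. The study's methods also name a pair of sequencing instruments with different read lengths, and which libraries ran on which was not given in the sources used here, so the part of the instrument in the day changes below was not tested. Values were deposited as TPM, a level per gene length that sums to 1000000 in each library. Depth recovered from the TPM lay between 36516600 and 51096594 fragments per library.

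Osr1 was measured at 105 and 91.0 TPM in Ctrl at 3 dpi and at 70.7 and 71.9 TPM in Osr1cKO. Its log2 difference was -0.45 (unadjusted p = 0.0164, Benjamini-Hochberg adjusted p = 0.775 in limma). At 7 dpi it was at 67.6 and 71.6 TPM in Ctrl against 64.4 and 60.8 TPM in Osr1cKO, a smaller difference of -0.28 (unadjusted p = 0.0166, adjusted p = 0.319). These values are given per gene and do not separate the floxed exon from the other exons, so they do not measure how complete the deletion was. The paper reports efficient deletion of the floxed exon in its RNA-seq reads. By RT-qPCR it also reports an efficient decrease of Osr1 mRNA in FAPs. Summed over 10 macrophage markers the libraries held 12.8 to 88.3 TPM, and over 9 FAP identity genes 26267 to 52550 TPM. The FAP list holds Dcn and Col3a1 beside the surface markers Ly6a and Pdgfra, and its sum does not stand for each gene. Among its 4 genes of smallest p from 3 to 7 dpi in Ctrl, Ly6a gave -1.44 and Pdgfra -0.68 (log2, limma). The others rose, Dcn by 1.06 and Pi16 as well. In Osr1cKO Pdgfra gave -0.47 and Dcn 1.29, and Pi16 and Dpp4 also rose. The Ctrl library of replicate 2 at 3 dpi stood apart. It listed the non-coding entry Gm42418 at 0 TPM, against 8691 to 21050 TPM in the other libraries of its day. Of the 65 genes it held at under 50% of the lowest other library of its day, 78.5% have an exon on the opposite strand of another gene, against 30.2% of all 8374 genes examined. The Osr1cKO library of replicate 2 at 3 dpi held more such low genes (111), of which 23.4% have an opposite-strand exon. Among the ribosomal protein genes, 5 of the 20 with an opposite-strand exon were more than 1.2-fold lower there than in the mean of the other 3 libraries of the day, and 0 of the 65 others were. These were Rps12l1, Rpl23a, Rps10, Rpl30 and Rpl22l1, and their genotype differences at 3 dpi and their Ctrl changes between the days are given below with and without this library.

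Start site sequences are shown for members that the results turn on, to place their runs of C and T beside the changes. For 64 of the 87 members RefSeq (GRCm38.p6) gave an annotated start, and the windows below hold 15 bases before it and 15 from it, 5′ to 3′ on the gene's strand, with the longest unbroken run of C and T in capitals. The first 6 belong to core genes with lower levels at 7 dpi, of which Rps2 and Rps3 have no run of 8 or more, the next 3 to genes with higher levels, and the last pair to paralog-named members that differed between genotypes at an unadjusted p.
Rplp2: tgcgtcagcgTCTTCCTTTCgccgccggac
Rpl18: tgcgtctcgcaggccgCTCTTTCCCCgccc
Rpl13a: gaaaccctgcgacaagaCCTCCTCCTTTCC
Rpl4: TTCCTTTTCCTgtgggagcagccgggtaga
Rps2: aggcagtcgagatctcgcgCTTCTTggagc
Rps3: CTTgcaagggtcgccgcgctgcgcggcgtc
Rpl31: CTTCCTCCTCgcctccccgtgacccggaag
Rpl39: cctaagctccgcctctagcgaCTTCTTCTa
Rps24: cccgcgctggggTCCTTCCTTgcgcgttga
Rpl22l1: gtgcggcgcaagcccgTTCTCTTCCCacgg
Rps27l: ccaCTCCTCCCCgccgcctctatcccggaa
These windows lie at chr7:141447636-141447665 (+ strand), chr7:45718056-45718085 (+), chr7:45128731-45128760 (-), chr9:64173372-64173401 (+), chr17:24720048-24720077 (+), chr7:99483695-99483724 (-), chr1:39367836-39367865 (+), chrX:37085208-37085237 (-), chr14:24490663-24490692 (+), chr3:28805493-28805522 (+) and chr9:66946071-66946100 (+), in the order printed.

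A run of at least 8 C or T bases was found in this window in 28 of the 64 members with an entry (43.8%), and in 25 of the 56 core members with an entry (44.6%), against 3760 of all 27025 genes with an entry (13.9%). The run could lie on either side of the annotated start. In Rpl4, Rpl31 and Rps27l it lay wholly before the RefSeq start. GENCODE places the starts of Rpl4 (chr9:64173375) and Rpl31 (chr1:39367842) within the run, so whether the run is transcribed is uncertain in these genes. Runs before the RefSeq start were counted, so these shares are not shares of TOP motifs. The run occurred in members that fell and in members that rose between the days. The 25 core members with the run had a median log2 change from 3 to 7 dpi of -0.26 in Ctrl and -0.23 in Osr1cKO, and the 31 without it had -0.20 and -0.21. CGGAAG, the core letters bound by ETS factors, was present on either strand in the 250 bases before the start in 31 of the 56 (55.4%), against 15.3% of all genes. TATAAA, the TATA box letters, was present on either strand in 3 of the 56 (5.36%), against 14.3%.

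The members together held between 5.70% and 7.82% of all TPM. At 3 dpi they took 7.55% and 7.82% in the Ctrl libraries and 7.68% and 7.66% in the Osr1cKO libraries. At 7 dpi they took 5.90% and 5.70% in Ctrl and 6.32% and 6.17% in Osr1cKO. All 4 libraries at 7 dpi lay below all 4 at 3 dpi, and at 7 dpi both Osr1cKO libraries lay above both Ctrl libraries. The mean share dropped by 1.66 percentage points from 3 to 7 dpi, from 7.68% ± 0.110 (SD, n = 4) to 6.02% ± 0.279 (SD, n = 4), with an exact two-sided permutation p of 0.0286, the smallest this design allows. The drop was 1.11 points as a share of protein-coding TPM and 0.604 points as a share of recovered fragments. The 7 dpi libraries also held more TPM in the 4 highest non-coding entries (Gm23935, Gm42418, Mir6236 and Gm24187), which took 2.33% to 4.0% at 3 dpi and 6.30% to 13.4% at 7 dpi. Genes encoded by the mitochondrial genome took 0.550% to 1.04% at 3 dpi and 2.76% to 3.31% at 7 dpi.

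The genotype difference in this share was -0.0112 points at 3 dpi (exact two-sided permutation p = 1) and 0.449 points at 7 dpi (exact two-sided permutation p = 0.333), where 2 against 2 libraries cannot give a p below 0.333. Without the Ctrl library of replicate 2 the 3 dpi difference was 0.123 points. The 7 dpi difference depended on the denominator. The 4 non-coding entries took 13.4% and 12.4% in the Ctrl libraries at 7 dpi against 9.12% and 6.30% in the Osr1cKO libraries. As a share of protein-coding TPM the members took 7.11% and 6.82% in Ctrl and 7.27% and 6.84% in Osr1cKO, so that the ranges overlapped, with a difference of 0.0950 points (exact two-sided permutation p = 0.667).

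**Figure D1:**
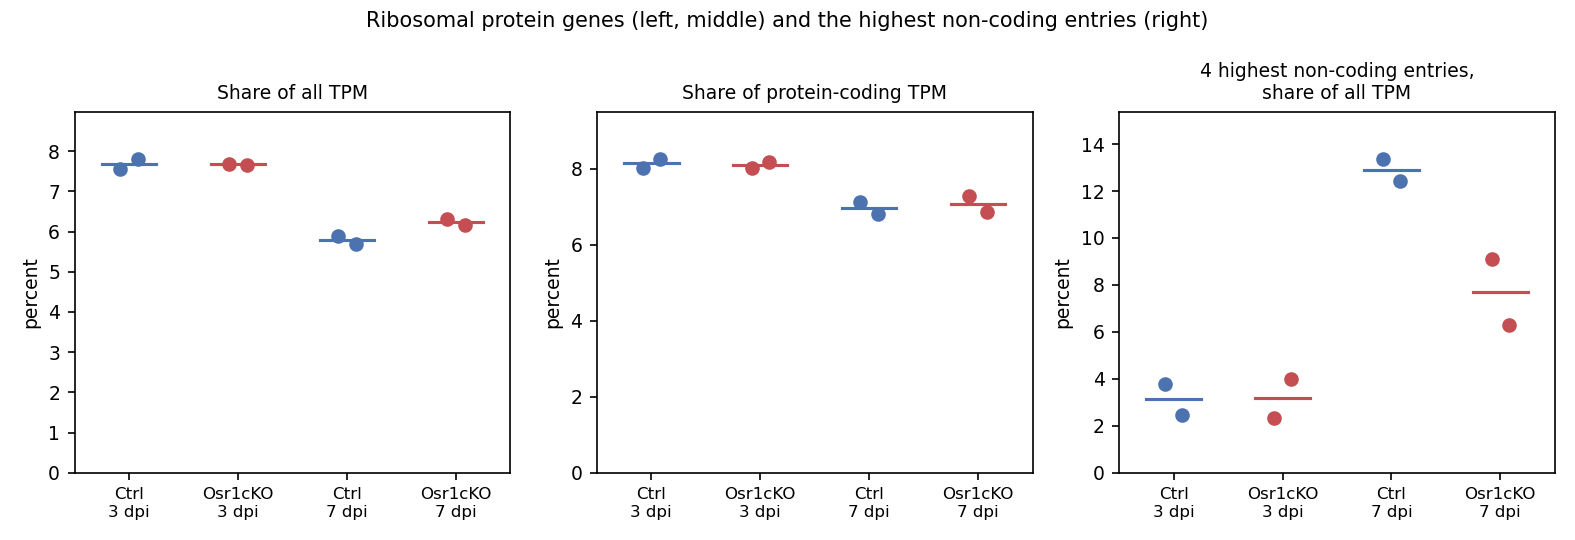
Percent of TPM (y axis) in each of the 8 libraries (points) with group means (lines), for the members over all TPM (left), for the members over protein-coding TPM (middle) and for the 4 highest non-coding entries over all TPM (right). The 7 dpi libraries sit below the 3 dpi libraries in the left and middle panels, and the genotypes overlap at 7 dpi in the middle panel only.

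Each class of core member took a smaller share at 7 dpi. The 3 stalk genes together held 1.11% to 1.198% of TPM at 3 dpi and 0.590% to 0.654% at 7 dpi. The large-subunit core genes held 3.55% to 3.597% at 3 dpi and 2.90% to 3.21% at 7 dpi, and the small-subunit core genes 2.81% to 2.94% and 2.16% to 2.40%. The ratio of the small-subunit share to the share of the large subunit with the stalk lay between 0.603 and 0.620 in all 8 libraries. The paralog-named members held only 0.0737% to 0.0804% at 3 dpi. At 7 dpi they held 0.0491% and 0.0444% in Ctrl and 0.0617% and 0.0602% in Osr1cKO.

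Levels of core members differed widely. Mean TPM over the 8 libraries ran from 12.7 (Rps10) to 5344 (Rplp1), with a median of 712 and quartiles of 404 and 1084. Among the highest were Rplp1, Rplp0 at 3009 TPM, Rps15 at 2519, Rpl4 at 2129, Rps2 at 2114, Rpl8 at 1902 and Rpl36 at 1709. Rps15 is a small-subunit protein and Rpl4 lines the exit tunnel of the large subunit. The order was nearly the same in every library, and the Spearman correlation of the 76 levels between pairs of libraries lay between 0.927 and 0.997 over 28 pairs, where the libraries share gene lengths and annotation. Part of the spread came with the length used. The TPM divide by all annotated exons of a gene, and dividing instead by the principal transcript gave 26.3 (Rpl24) to 5344 (Rplp1) with a median of 1575.

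The lowest members were Rpl10l, listed at 0 TPM in all 8 libraries, Rpl3l at 0 to 0.391 TPM, Rpl36al at a mean of 5.65 TPM, Rps10 at 12.7 TPM and Rpl6l at 15.2 TPM. Rpl3l is a striated-muscle form of Rpl3 and Rpl10l a testis retrocopy of Rpl10. The core genes with the lowest levels share sequence with other genes. Of the 50-base windows of its principal transcript Rps10 shared 56.8% with other annotated genes, 50.8% with the read-through gene RPS10-NUDT3, and Rpl24 shared 81.7%, of which 69.4% with Gm28037. How reads were divided between such copies was not tested, so the level of a member with them is uncertain. Over the 76 core members the level and the percentage of shared windows had a Spearman correlation of 0.037.

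**Figure D2:**
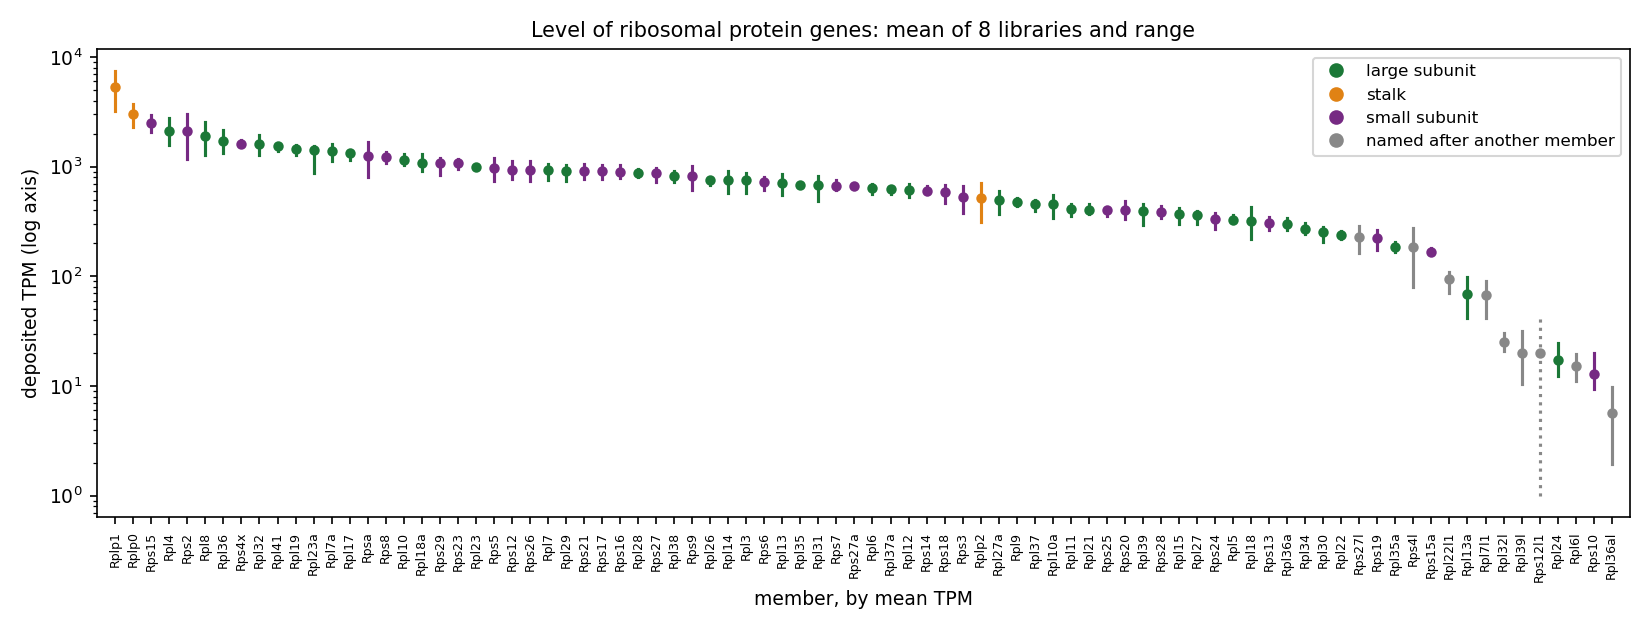
Mean TPM over the 8 libraries (points, log axis) and the range from the lowest to the highest library (lines) for 84 members, ordered by mean and coloured by class. The stalk genes Rplp1 and Rplp0 lead at 5344 and 3009 TPM, and the dotted line marks Rps12l1, which is listed at 0 in 1 library and drawn there at the foot of the line.

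The change from 3 to 7 dpi was the main difference among the members. limma was fitted to log2(scaled TPM + 1) of all 8 libraries, and a gene was called at a Benjamini-Hochberg adjusted p under 0.1 with a fold change over 1.2. Of 85 members tested, 3 rose and 34 fell in Ctrl, where 26.7% of all 17277 genes tested rose and 28% fell. In Osr1cKO 3 rose and 34 fell as well, where 24% of all genes rose and 26.3% fell. In either direction 37 of 85 members passed in each genotype, against 54.6% and 50.3% of all genes. The median log2 change of the members was -0.23 in Ctrl and -0.23 in Osr1cKO, where the medians of all genes were 0.02 and 0.02. Both genotypes shared 28 of the lower calls (82.4% of each list) and 2 of the higher ones, Rpl31 and Rpl39. By class, the lower calls in Ctrl held 15 of 43 large-subunit, 3 of 3 stalk and 10 of 30 small-subunit core members, and in Osr1cKO 16, 3 and 12. The counts depended on single libraries. Without the Ctrl library of replicate 2 at 7 dpi the median log2 change in Ctrl was -0.18 for the members and 0.00 for all genes. Without the Osr1cKO library of replicate 2 at 7 dpi the medians in Osr1cKO were -0.15 and 0.01. In these fits fewer members and fewer of all genes were called lower, and the share of members called lower was close to that of all genes.

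The stalk genes fell together. Rplp1 measured 6689 and 7512 TPM in Ctrl and 7493 and 7212 TPM in Osr1cKO at 3 dpi, and 3481 and 3236 TPM in Ctrl and 3696 and 3432 TPM in Osr1cKO at 7 dpi. Rplp2 measured 669 and 713 TPM in Ctrl and 707 and 678 TPM in Osr1cKO at 3 dpi, and 328 and 316 TPM in Ctrl and 365 and 323 TPM in Osr1cKO at 7 dpi. For both genes every library at 7 dpi lay well below every library at 3 dpi, and the genotypes overlapped within each day. In limma, Rplp1 fell by 0.998 on the log2 scale in Ctrl (SE 0.261, Benjamini-Hochberg adjusted p = 0.0184) and by 1.11 in Osr1cKO (adjusted p = 0.0143), and Rplp2 fell by 1.02 (SE 0.130, adjusted p = 0.00112) and 1.07 (adjusted p = 0.00134). Rplp0, which anchors the pair to the ribosome, measured 3741 and 3757 TPM in Ctrl and 3449 and 3717 TPM in Osr1cKO at 3 dpi, and 2289 and 2350.4 TPM in Ctrl and 2478 and 2293 TPM in Osr1cKO at 7 dpi. It too was lower in every library at 7 dpi, by a smaller step of -0.61 in Ctrl and -0.65 in Osr1cKO on the log2 scale.

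Among core small-subunit genes Rps2, whose protein lies at the entry channel of the messenger RNA, had the largest log2 change in both genotypes. It measured 2756 and 2903 TPM in Ctrl and 2676 and 3009 TPM in Osr1cKO at 3 dpi, and 1351 and 1178 TPM in Ctrl and 1597 and 1445 TPM in Osr1cKO at 7 dpi. The days did not overlap, and limma gave a log2 change of -1.08 in Ctrl (SE 0.190, Benjamini-Hochberg adjusted p = 0.00376) and -0.96 in Osr1cKO (adjusted p = 0.00719). Its transcript shares 71.3% of its 50-base windows with other genes, among them the pseudogene Rps2-ps10. Rpsa, also known as the laminin receptor, fell by 0.83 in Ctrl and 0.79 in Osr1cKO, and Rps3, at the same entry channel, by 0.73 and 0.71. Rps19, the gene most often mutated in Diamond-Blackfan anaemia, fell by 0.48 and 0.45, all on the log2 scale and all called in both genotypes. Rps6, the target of the S6 kinases, fell by 0.28 in Ctrl (adjusted p = 0.0983 in limma) and gave -0.23 in Osr1cKO, which did not pass.

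Of the large subunit, Rpl13a, which also acts in translational silencing outside the ribosome, measured 77.1 and 91.5 TPM in Ctrl and 89.0 and 99.0 TPM in Osr1cKO at 3 dpi, and 44.4 and 41.6 TPM in Ctrl and 53.8 and 50.4 TPM in Osr1cKO at 7 dpi. Rpl18 measured 424 and 406 TPM in Ctrl and 372 and 398 TPM in Osr1cKO at 3 dpi, and 230.5 and 221 TPM in Ctrl and 258 and 243 TPM in Osr1cKO at 7 dpi. In both genes the days were fully apart. Rpl13a fell by 0.87 in Ctrl (SE 0.131, Benjamini-Hochberg adjusted p = 0.00209 in limma) and by 0.90 in Osr1cKO, and Rpl18 fell by 0.80 (SE 0.104, adjusted p = 0.0012) and by 0.68, on the log2 scale. Rpl8, next to the peptidyl transferase centre, gave -0.78 in each genotype, and the tunnel protein Rpl4 -0.58 and -0.61, all called.

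A few core members rose. Rpl31 and Rpl39, which both sit by the exit of the peptide tunnel, were higher at 7 dpi. Rpl31 measured 486 and 560.0 TPM in Ctrl and 614 and 527 TPM in Osr1cKO at 3 dpi, and 815 and 791 TPM in Ctrl and 806 and 812 TPM in Osr1cKO at 7 dpi. Rpl39 measured 290.3 and 343 TPM in Ctrl and 368 and 308 TPM in Osr1cKO at 3 dpi, and 439.5 and 455 TPM in Ctrl and 456 and 457 TPM in Osr1cKO at 7 dpi. Neither gene overlapped between the days. In limma, Rpl31 rose by 0.70 in Ctrl (SE 0.148, Benjamini-Hochberg adjusted p = 0.00809) and 0.44 in Osr1cKO (adjusted p = 0.0490), and Rpl39 by 0.58 (adjusted p = 0.0162) and 0.38 (adjusted p = 0.0786). Rpl31 has an exon opposite Tbc1d8 and shares 70.0% of its windows with other genes. Rps24, another Diamond-Blackfan anaemia gene, gave 0.24 in Ctrl, which did not pass, and rose by 0.32 in Osr1cKO (adjusted p = 0.0497 in limma).

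Several members with roles of their own gave small values. Rpl5 gave a log2 change of 0.08 in both genotypes, and Rps27a, made as a fusion with ubiquitin, 0.06 in Ctrl and -0.01 in Osr1cKO. Rpl41, the shortest ribosomal protein, gave 0.03 and 0.05, and Rpl10, which completes the large subunit, 0.28 and 0.20. None of these passed in either genotype. Rpl11, the partner of Rpl5 in binding Mdm2, gave -0.22 in Ctrl, which did not pass, and fell by 0.29 in Osr1cKO (adjusted p = 0.0737 in limma). Across the 76 core members the changes in Ctrl and Osr1cKO had a Spearman correlation of 0.952, against 0.876 over all genes tested, where the fits share scaling and spread but no library. The change had a Spearman correlation with the GC content of the transcript of -0.33 in Ctrl and -0.30 in Osr1cKO over the 76, against -0.13 in both over all genes with a transcript.

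**Figure D3:**
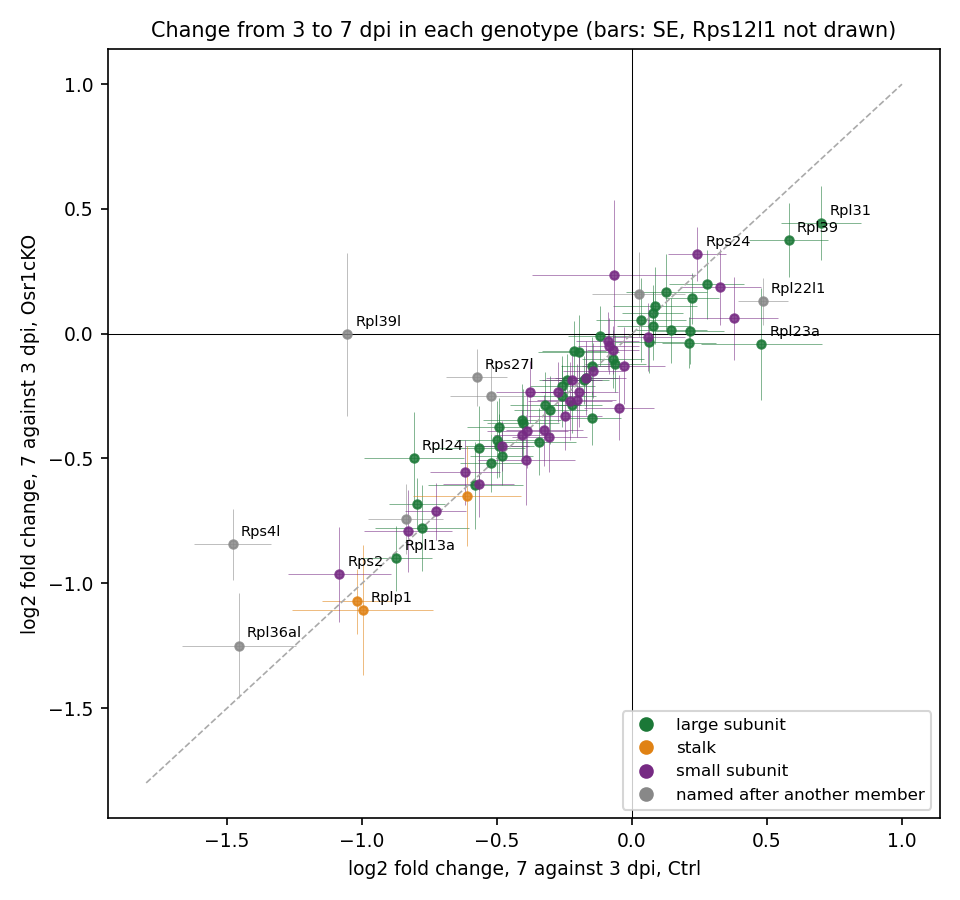
log2 fold change from 3 to 7 dpi in Ctrl (x axis) and in Osr1cKO (y axis) for each tested member except Rps12l1, with standard errors from limma as bars and the line of equal change dashed. Most core members lie along the line at or below 0, the stalk gene Rplp1 near -0.998 and -1.11, and Rps4l, Rpl39l and Rps27l lie above the line.

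Paralog-named members and the genes they are named after did not always move alike. Rpl36al, a retrocopy of Rpl36a, measured 7.36 and 9.82 TPM in Ctrl and 8.24 and 8.86 TPM in Osr1cKO at 3 dpi, and 2.74 and 1.94 TPM in Ctrl and 3.00 and 3.31 TPM in Osr1cKO at 7 dpi. The days were apart in all libraries, on 29 to 169 recovered fragments per library. Rpl36al fell by 1.46 and 1.25 on the log2 scale, while Rpl36a gave -0.15 in Ctrl, which did not pass, and fell by 0.34 in Osr1cKO. Rps4l, a processed copy of Rps4x, fell by 1.48 in Ctrl (adjusted p = 0.000461 in limma) and 0.84 in Osr1cKO (adjusted p = 0.00405), while Rps4x gave -0.03 and -0.13. Rpl22l1, a paralog of Rpl22, rose by 0.48 in Ctrl (adjusted p = 0.00551 in limma, 0.0158 without the Ctrl library of replicate 2) and gave 0.13 in Osr1cKO, whereas Rpl22 gave -0.06 and -0.12. Rpl7l1, an assembly factor related to Rpl7, fell by 0.84 and 0.74, and Rpl7 gave -0.30 and -0.31, which did not pass. The differences within these pairs were not tested.

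The 3 ribosome genes given from outside the name rule differed in their change. Rack1, a small-subunit scaffold for kinases, fell by 0.80 in Ctrl and 0.76 in Osr1cKO on the log2 scale, called in each genotype. Fau, made as a fusion with a ubiquitin-like protein, gave -0.18 and -0.16, and Rps3a1 0.17 and 0.13, none of which passed.

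Most genes of ribosome biogenesis, RNA polymerase I, initiation and elongation were also lower at 7 dpi, where 28% of all genes fell in Ctrl and 26.3% in Osr1cKO. Of 47 ribosome biogenesis genes, 1 rose and 43 fell in Ctrl and 0 rose and 43 fell in Osr1cKO, with median log2 changes of -1.03 and -1.01, a larger step than the members' -0.23. Mybbp1a, a nucleolar protein, fell by 1.93 and 1.64, and Dkc1, the pseudouridine synthase of box H/ACA particles, by 1.72 and 1.69. Of 11 genes of RNA polymerase I, which transcribes ribosomal RNA, 0 rose and 9 fell in Ctrl and 2 rose and 8 fell in Osr1cKO, and Polr1b fell by 1.65 and 1.45. Of 32 initiation factor genes, 2 rose and 25 fell in Ctrl and 2 rose and 24 fell in Osr1cKO. Of 7 elongation factor genes, 0 rose and 5 fell in each genotype. Of 16 genes of mTOR signalling and TOP regulation, 1 rose and 9 fell in Ctrl and 1 rose and 7 fell in Osr1cKO, among them Larp1 (-1.20 and -1.09) and the translation repressor Eif4ebp1 (-1.52 and -1.24). The 8 of 16 called in either direction in Osr1cKO were close to the 50.3% of all genes.

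Other gene groups moved with the day. Summed over 14 proliferation genes, the libraries held 1310 to 1693 TPM at 3 dpi and 261 to 404 TPM at 7 dpi, and 0 rose and 14 fell in each genotype. Several marker lists of other cells were higher at 7 dpi, with 10 myofiber genes at 11.9 to 17.9 and then 52.1 to 90.6 TPM, 10 macrophage genes at 12.8 to 27.6 and then 54.7 to 88.3 TPM and 6 erythroid genes at 0 to 1.47 and then 11.7 to 54.2 TPM. Schwann cell genes overlapped between the days (180 to 257 and 208 to 268 TPM), as did lymphoid genes (5.80 to 13.0 and 8.94 to 16.3 TPM). For macrophages 2 of 10, for myofibers 3 of 10 and for erythroid cells 2 of 6 genes had a mean under 1 TPM. The part of these cells and of the cell cycle in the members' change was not tested, and in sorted populations a change in cell makeup and one in RNA per cell cannot be told apart.

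The genotype comparison asked whether loss of Osr1 changed the family at either day. At 3 dpi, where calls followed the study's threshold of a 1.2-fold change with an unadjusted p under 0.05, 1 of 85 members was called higher, Rpl22l1, and 0 lower, where 2.36% of 15651 genes were called higher and 3.9% lower. With a Benjamini-Hochberg adjusted p under 0.1, 0 genes of the 15651 passed in limma and 0 of 15445 in limma-voom, and 979 (6.26%) passed the unadjusted threshold in either direction. Of the members 39 had positive and 46 negative log2 changes, with a median of -0.01 against 0.01 for all genes. For core members the median absolute log2 difference between genotypes was 0.0525, with a median SE of 0.161.

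Rpl22l1 measured 75.4 and 70.9 TPM in Ctrl and 90.7 and 99.6 TPM in Osr1cKO at 3 dpi, and 100.0 and 94.4 TPM in Ctrl and 109.8 and 108 TPM in Osr1cKO at 7 dpi. The Osr1cKO libraries lay above the Ctrl libraries on both days. In limma its log2 difference at 3 dpi was 0.37 (SE 0.118, unadjusted p = 0.0245, Benjamini-Hochberg adjusted p = 0.775), and 0.33 without the Ctrl library of replicate 2 (unadjusted p = 0.0571), which ended the call. It also ended without either Osr1cKO library, with log2 differences of 0.42 (unadjusted p = 0.0960) and 0.33 (unadjusted p = 0.167), beside 0.37 from all 4 libraries. At 7 dpi it was 0.03 (adjusted p = 0.899).

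The other members affected by that library showed how far 1 library set their 3 dpi values. Rpl23a, by the tunnel exit, measured 1430.2 and 867 TPM in Ctrl and 1523 and 1463 TPM in Osr1cKO, a log2 difference of 0.42 (unadjusted p = 0.197 in limma) that was 0.06 without it. Rpl30, of the large subunit, measured 244 and 207 TPM in Ctrl and 272 and 269.9 TPM in Osr1cKO, with 0.27 (unadjusted p = 0.109) and 0.15 without it. Rps10, of the small subunit, measured 19.8 and 9.32 TPM in Ctrl and 9.81 and 11.6 TPM in Osr1cKO, with -0.33 (unadjusted p = 0.396) and -0.84 (unadjusted p = 0.0100, adjusted p = 0.187) without it, where the library at 19.8 TPM alone stands for Ctrl and the unadjusted threshold was passed. Rps12l1 measured 42.9 TPM in 1 Ctrl library and was listed at 0 in the other, against 27.3 and 35.6 TPM in Osr1cKO, and its fitted difference turned from 2.28 to -0.45 without the library at 0, where the first value depends on the pseudocount. In Rpl23a, Rpl30 and Rps12l1 the Ctrl library of replicate 2 was the lowest of its day, and in Rps10 that of replicate 1 stood above the other 3. Between the days in Ctrl, Rpl23a gave 0.48 and Rpl30 0.21, and 0.15 and 0.12 without the library, none of which passed. Rps10 gave -0.07 and Rps12l1 1.11, which did not pass, and without the library -0.55 (adjusted p = 0.0811 in limma) and -1.60 (adjusted p = 0.00284), which did.

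At 7 dpi, 0 members passed a Benjamini-Hochberg adjusted p under 0.1 in limma or in limma-voom on recovered fragments. Over all 16482 genes limma called 3 higher (0.0182%) and 8 lower (0.0485%), or 0.0667% in either direction. limma-voom called 74 of 16262 genes higher and 113 lower. With so few calls over all genes, 0 members passing does not set the family apart. At the unadjusted threshold used for 3 dpi, 3 members were called higher and 0 lower, where 5.24% of all genes were called higher and 5.9% lower. All 3 were paralog-named members (Rps4l, Rps27l and Rpl39l), and 0 of the 76 core members were called. Each of the 9 tested paralog-named members had a positive log2 difference, with a median of 0.22. Some were close to 0 for their SE, such as Rpl22l1 at 0.03 (SE 0.077) and Rpl32l at 0.07 (SE 0.164). Of the core members 28 were positive and 48 negative, with a median of -0.02, beside 0.00 for all genes. Such signs depended on single libraries. Of all 85 members 37 were positive, which became 15 without Osr1cKO replicate 1 and 53 without Osr1cKO replicate 2. The largest core difference was -0.14 (Rpl37a), and the median absolute core difference was 0.0454, with a median SE of 0.0947.

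Rps4l measured 274 and 268 TPM in Ctrl and 222 and 254 TPM in Osr1cKO at 3 dpi, and 103 and 80.5 TPM in Ctrl and 140.3 and 135 TPM in Osr1cKO at 7 dpi. Osr1cKO lay below Ctrl at 3 dpi and above it at 7 dpi, without overlap on either day. The 7 dpi log2 difference was 0.46 (SE 0.135, unadjusted p = 0.0172, Benjamini-Hochberg adjusted p = 0.319 in limma). Rps27l, a paralog of Rps27 induced by p53, measured 261 and 285 TPM in Ctrl and 247 and 245 TPM in Osr1cKO at 3 dpi, and 183 and 163 TPM in Ctrl and 228 and 227 TPM in Osr1cKO at 7 dpi. It had the same order as Rps4l on each day, with a 7 dpi log2 difference of 0.26 (SE 0.088, unadjusted p = 0.0271, adjusted p = 0.346). Rpl39l, a paralog of Rpl39 known from testis, measured 13.6 and 10.4 TPM in Ctrl and 23.1 and 17.3 TPM in Osr1cKO at 7 dpi, with 0.58 (SE 0.204, unadjusted p = 0.0324, adjusted p = 0.358). All 3 calls ended without the Osr1cKO library of replicate 1, where the log2 differences in limma were 0.40 for Rps4l (unadjusted p = 0.0605), 0.23 for Rps27l (0.0946) and 0.35 for Rpl39l (0.135). Those of Rps27l and Rpl39l also ended without the Ctrl library of replicate 2, with 0.18 (unadjusted p = 0.157) and 0.39 (0.0976). At 3 dpi the Rpl39l libraries overlapped, at 23.3 and 31.8 TPM in Ctrl and 13.8 and 26.6 TPM in Osr1cKO.

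**Figure D4:**
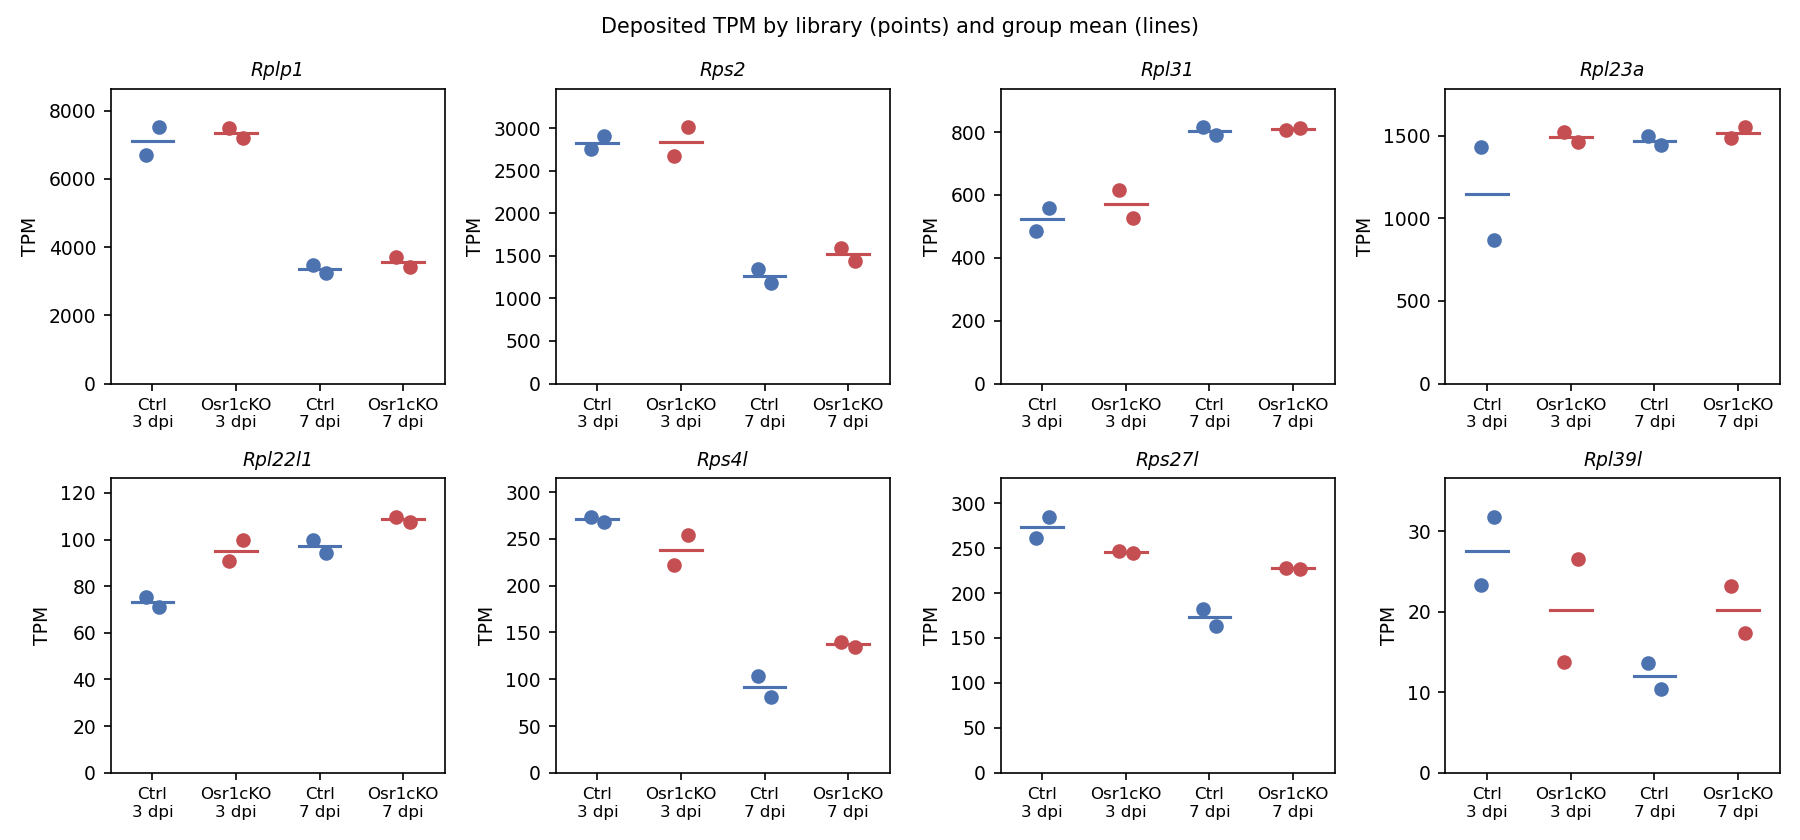
TPM (y axis, from 0) in each library (points) with group means (lines) for 8 members. Rplp1 and Rps2 are lower and Rpl31 is higher at 7 dpi in all libraries, 1 Ctrl library at 3 dpi lies apart in Rpl23a at 867 TPM, and in Rps4l and Rps27l the Osr1cKO libraries lie below Ctrl at 3 dpi and above it at 7 dpi.

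The genes these paralogs are named after were not called at 7 dpi. Rps4x measured 1553 and 1524 TPM in Ctrl and 1576 and 1632 TPM in Osr1cKO, and Rps27 948 and 953 TPM in Ctrl and 945 and 960.2 TPM in Osr1cKO. Their log2 differences were -0.07 and -0.13, and that of Rpl39 was -0.10. Rpl7l1, at 42.9 and 41.8 TPM in Ctrl and 54.7 and 55.0 TPM in Osr1cKO, had an unadjusted p of 0.0221 in limma and fell just short of the fold threshold with 0.23.

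The scaling of the libraries moved the members and all genes alike at 7 dpi. On deposited TPM, 66 of 85 members lay higher in both Osr1cKO libraries than in both Ctrl libraries and 0 lay lower, where 43% of all genes lay higher and 10.6% lower. Without scaling the median log2 difference of the members was 0.12, and that of all genes was 0.11. With the trimmed-mean scaling the values were -0.01 and 0.00. At 3 dpi, 7 of 85 members lay higher and 24 lower on deposited TPM, where 18.1% and 18% of all genes did.

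**Figure D5:**
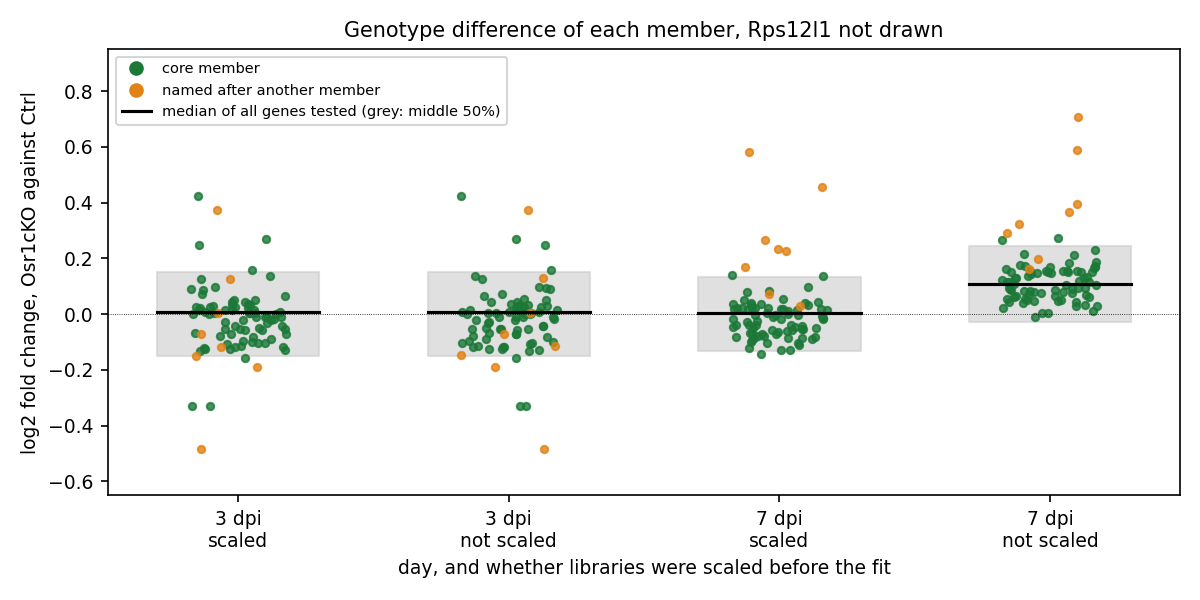
log2 fold change of Osr1cKO against Ctrl (y axis) for each tested member except Rps12l1 at 3 and 7 dpi, with and without scaling of the libraries, core members and paralog-named members coloured apart. Black lines mark the median of all genes tested and grey boxes their middle 50%, and at 7 dpi the core members move up with that median from 0.00 to 0.11 when no scaling is used.

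The interaction of genotype and day compared the genotype differences themselves. With an adjusted p under 0.1, 0 genes of 17277 passed in limma and 0 of 17050 in limma-voom. At an unadjusted p under 0.05 with a fold over 1.2, 3 members were called, 2 with a larger difference at 7 dpi (Rps4l and Rps27l) and 1 with a smaller one (Rpl22l1), where 3.62% and 3.15% of all genes were called (6.78% in all). No core member was among them.

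Lists of the translation machinery were counted in the same way. At 3 dpi and the unadjusted threshold, 1 gene of the 5 lists was called, Sesn2 of the mTOR list, which was lower. Of all genes 2.36% were called higher and 3.9% lower there, and 5.24% and 5.9% at 7 dpi. At 7 dpi 2 of 47 ribosome biogenesis genes were called higher and 2 lower, 1 of 11 RNA polymerase I genes higher (Rrn3, 0.35), 2 of 32 initiation factor genes higher (Eif2s3x, 0.69, and Eif2b5, 0.36), and of 16 mTOR genes 1 higher (Ddit4, 0.70) and 2 lower (Deptor, -0.67, and Myc, -0.31). The biogenesis counts and the higher count of initiation factors were close to the shares of all genes. Of 7 elongation factor genes 0 were called, and in limma 0 genes of the 5 lists had an adjusted p under 0.1 on either day. Nop58, a core protein of box C/D particles, had a log2 difference of -0.56 (unadjusted p = 0.000541, adjusted p = 0.204 in limma). Of 9 p53 target genes, a list that does not hold Rps27l, 0 were called higher and 5 lower at 3 dpi (Cdkn1a, Bax, Phlda3, Trp53inp1 and Eda2r), where 3.9% of all genes were called lower. The median log2 difference of the list was -0.49. The calls became 0 lower without Ctrl replicate 1 or without Osr1cKO replicate 2 and 1 without Osr1cKO replicate 1, and 8 of 9 differences were negative with all libraries and in each of these fits. The list summed to 915 and 1196 TPM in the Ctrl libraries and 733 to 786 TPM in Osr1cKO at 3 dpi. It held 1 gene called higher and 0 lower at 7 dpi, the p53 inhibitor Mdm2 with a log2 difference of 0.30. In the interaction 7 of these 9 had an unadjusted p under 0.05 with a fold over 1.2, against 6.78% of all 17277 genes. With an adjusted p under 0.1, 0 genes passed. How this count depends on single libraries is not given here. Of 14 proliferation genes, 5 were called higher and 0 lower at 7 dpi at the unadjusted threshold, against 5.24% and 5.9% of all genes. The smallest adjusted p of this list was 0.251 in limma (Birc5).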

How the data were processed

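RNA-seq was measured in 8 libraries of sorted FAPs. The authors prepared stranded polyA libraries, aligned with STAR to mm10, normalised with DESeq2 and deposited TPM per gene symbol. The counting tool, annotation and strand setting were not given in the sources used here, and the methods name a pair of sequencing instruments with different read lengths, so reads from overlapping genes are uncertain. Of 55385 entries, 109 repeats of 106 symbols were left out, none of them a member. Lengths came from GENCODE release 21 of the mouse, and fragments recovered with them were whole within 0.02 for 98.7% to 98.9% of values under 50. Genes needed 10 fragments in 2 libraries and 15 in all (without a length, a mean TPM of 1), which 85 of 87 members met. limma 3.58.1 (R 4.3.3) with a trend was fitted on log2(TPM + 1) after scaling by a 30% trimmed mean of log ratios, so fold changes of low genes are understated. Each day was fitted on its 4 libraries for genotype and all 8 were fitted for day and interaction, with p-values adjusted over all genes by the Benjamini-Hochberg method. Shares were tested by exact permutation. The procedure was tested on simulated data. Named genes were the members highest and lowest in mean TPM, those of smallest p in each contrast, the paralog-named members with their namesakes, members with known roles, and up to 4 genes of smallest p from other lists. Rps3a1, Fau, Rack1 and Osr1 were also named, and some genes of these rules are not reported here. Members and lists were chosen with earlier results of these data known. With 2 libraries per group, p-values rest on the spread between single mice at 3 dpi and between pools at 7 dpi. Fits of all 8 libraries use both kinds of spread together. limma also moderates the spread of each gene with that of the other genes. Alternatives were other filters, scalings and pseudocounts, limma-voom, a replicate block and leaving out each library, where a group left with 1 library is assumed to vary like the others in the fit.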

Additional observations from a re-analysis of the deposited data

Results flagged for a closer look

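The genotype difference of 3 paralog-named members was not the same on both days at an unadjusted p under 0.05 in the interaction fit of limma, and in each the adjusted p over all 17277 genes missed 0.1. Rps4l had an unadjusted interaction p of 0.0156 (adjusted p = 0.661), with a log2 difference between the genotypes of -0.19 at 3 dpi and 0.46 at 7 dpi. Rpl22l1 had an unadjusted interaction p of 0.0304 in limma (adjusted p = 0.712), with 0.37 at 3 dpi and 0.03 at 7 dpi, and without the Ctrl library of replicate 2 at 3 dpi that p was 0.0424. Rps27l had an unadjusted interaction p of 0.0407 in limma (adjusted p = 0.728), with -0.15 at 3 dpi and 0.26 at 7 dpi. Leaving out 1 library ended each of these. For Rps4l this happened without Osr1cKO replicate 1 at 3 dpi (interaction 0.55, unadjusted p = 0.0533 in limma) or at 7 dpi (0.58, 0.0539), beside 0.64 from all libraries. For Rpl22l1 it happened without Ctrl replicate 1 at 7 dpi (interaction -0.29, unadjusted p = 0.118 in limma), Osr1cKO replicate 2 at 3 dpi (-0.31, 0.0841) or Osr1cKO replicate 2 at 7 dpi (-0.30, 0.106), beside -0.35 from all libraries. For Rps27l it happened in 6 of 8 omissions, with values of 0.30 to 0.44 and unadjusted p-values of 0.0660 to 0.143, beside 0.40 from all libraries. Over all genes 6.78% passed this threshold.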

How the results depend on the processing

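Each genotype comparison rests on 2 against 2 libraries. The share of TPM held by the members differed between genotypes at 3 dpi by -0.157 points over recovered fragments, and at 7 dpi by 0.0896 points without the 50 highest other genes, 0.116 over recovered fragments and 0.0950 over protein-coding TPM. Leaving out each library gave -0.145 to 0.123 points at 3 dpi, 0.349 to 0.550 at 7 dpi and -1.76 to -1.55 between the days. The 1 member called at 3 dpi became 2 in a fit of all 8 libraries and 0 without the paralog-named members or without members that have an opposite-strand exon, and 0 to 4 when a library was left out, with 4 without Ctrl replicate 1. At 7 dpi leaving out a library gave 0 to 1 members at an adjusted p under 0.1, with 1 without Ctrl replicate 1, and in the interaction 0 to 1, with 1 without Ctrl replicate 1 at 3 dpi. The 37 members called between the days became 20 to 50 in Ctrl and 14 to 42 in Osr1cKO, and 19 and 14 of them passed under every setting.

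The median log2 change of the members was -0.061 to 0.023 at 3 dpi and -0.069 to 0.046 at 7 dpi when a library was left out, and 0.119 at 7 dpi with no scaling, which moved the median of all genes to 0.109. Between the days it was -0.305 to -0.176 in Ctrl and -0.303 to -0.146 in Osr1cKO over the same omissions, -0.162 and -0.153 with a mean TPM filter, and -0.309 and -0.170 with no scaling. In Ctrl the split of calls was 11 higher and 33 lower with the mean TPM filter, where 4280 of 14681 genes were called higher and 4228 lower. The cause of these shifts was not tested.

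Replicate numbers in the labels are shared by different mice. Deviations of same-numbered libraries had a correlation of -0.142 at 3 dpi and 0.137 at 7 dpi, so the numbers were not taken as pairs. With the number as a replicate block the share fell by 1.66 points between the days. The exact paired p was 0.125, the smallest this pairing allows, so it cannot show a weaker change. The members called were 0 at 3 dpi, where 292 of 15651 genes were called higher and 615 lower. Between the days 3 rose and 29 fell in Ctrl and 2 rose and 25 fell in Osr1cKO. Of 17277 genes, 4420 rose and 4694 fell in Ctrl and 3917 rose and 4344 fell in Osr1cKO.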
